A study of Mus musculus with 6 samples.

Results

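The genes described here encode subunits of the mitochondrial respiratory chain that are carried by the nuclear genome. They were chosen as rows of the count tables named for 31 subunits of complexes I to V and for cytochrome c, and all 31 are listed among the 42396 genes of each table. They comprise 14 genes of complex I, 4 each of complexes II and III, 5 of complex IV, 3 of complex V and the cytochrome c gene Cycs. The libraries came from primary ventral midbrain cultures of wild-type mouse embryos at embryonic day 14, plated at 150000 cells per well and infected on the day of plating with a lentivirus at a multiplicity of infection of 5. The control group carried the vector pll3.7-Scr2, a scramble hairpin, and the knockdown group carried pll3.7-shRmstI, a hairpin against the circular RNA circRmst. RNA was taken at 3 days in vitro, and each group had 3 libraries (replicates 1, 2 and 3). Each library pooled a few wells, and 3 independent cultures are stated without saying which libraries share one, so that the p-values measure the spread between these libraries.

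The respiratory chain passes electrons from NADH through complex I, or from succinate through complex II, to ubiquinone, then through complex III and the mobile carrier cytochrome c to complex IV, which reduces oxygen. Complexes I, III and IV pump protons across the inner mitochondrial membrane, and complex V, the ATP synthase, uses the gradient to make ATP. Complex II is encoded wholly in the nucleus, whereas complexes I, III, IV and V combine nuclear subunits with subunits encoded in mitochondrial DNA. Midbrain dopamine neurons are known for their sensitivity to complex I inhibitors.

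Counts assigned to genes summed to between 27248934 and 43646521 per library, with 1.01% to 4.49% of them on Rn28s1, a gene of ribosomal RNA. The labels name dopamine neurons as the cell type. All 9 markers of these neurons had counts, with Th, the rate-limiting enzyme of dopamine synthesis, between 36.9 and 60.9 CPM (counts relative to library size, with libraries scaled by the TMM method). The cultures also held other cells. The 9 dopamine neuron markers summed to between 457.3 and 545.2 CPM per library, the 6 general neuron markers to between 3683 and 4654, the 6 astrocyte and radial glia markers to between 1287 and 1649, and the 6 oligodendrocyte lineage markers to between 261.8 and 422.1. The 5 red blood cell markers summed to 23.3, 27.2 and 26.6 CPM in the control and to 27.4, 39.4 and 32.5 CPM in the knockdown. The groups did not overlap, by the narrow gap between 27.2 and 27.4 CPM, whereas they overlapped in every other marker set read. Among single genes, 2.28% of 17439 tested were separated with the knockdown higher. The part of red blood cells in the results was not tested. Differences in the share of a cell type and in RNA per cell cannot be told apart in such bulk samples.

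No respiratory chain gene differed with the hairpin past the threshold. Of the 31 genes, 28 passed the filter on low counts, and edgeR's quasi-likelihood test over 17439 genes gave 0 with an adjusted p under 0.05, where 0.00% of all genes were called. At an unadjusted p under 0.05 there was 1, Atp5c1, against 1.10% of all genes tested. DESeq2 and limma voom on the counts also called 0 of them. The groups overlapped in all 28 of these genes. They did not overlap in 5.20% of all genes tested, a share that amounts to few genes in a list of 28. Log2 fold changes of knockdown against control lay between -0.27 and 0.16, with 11 of 28 above 0 and a median of -0.0239, beside a median of -0.00603 over all genes tested. The 95% interval stayed under a 1.5-fold difference, up or down, for 27 of the 28 genes, and the exception was Ndufa5. The median half-width of these intervals was 0.29 log2 units, equal to that of all genes with at least 1 CPM.

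**Figure D1:**
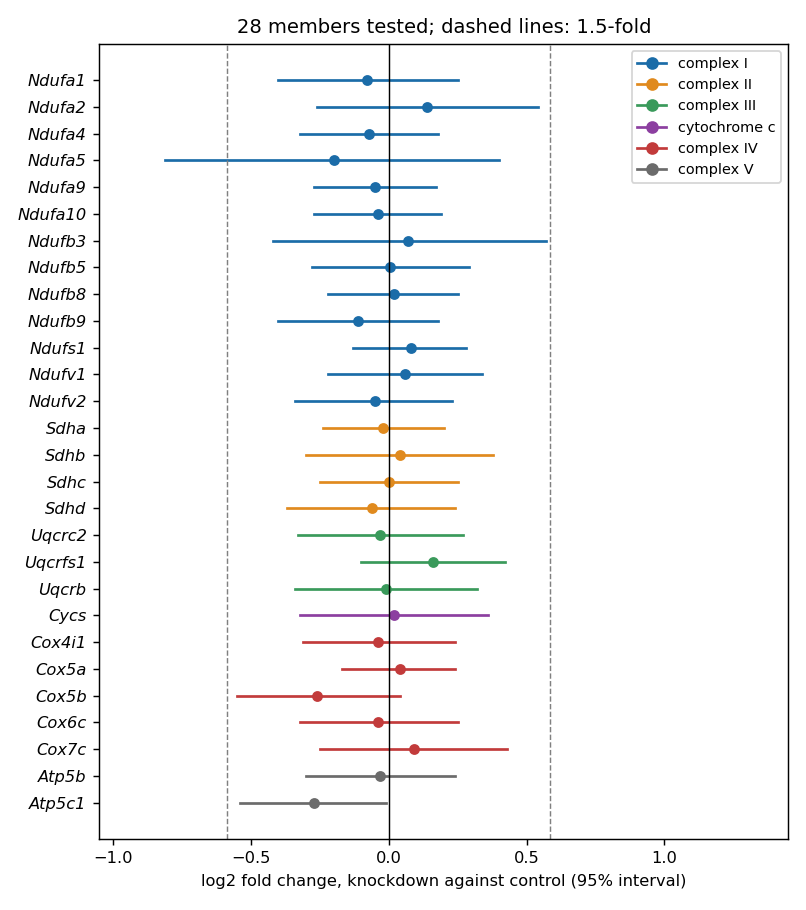
Log2 fold change of knockdown against control (point) with its 95% interval (line) for the 28 genes tested with edgeR, coloured by complex; dashed lines mark a 1.5-fold change in either direction. The intervals of 27 genes include 0, that of Atp5c1 ends at -0.01, and only that of Ndufa5 reaches past a dashed line.

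Complex I takes electrons from NADH. Ndufs1, which encodes its largest iron-sulphur subunit, was at 109.2, 109.3 and 124.2 CPM in control replicates 1, 2 and 3 and at 123.6, 117.3 and 121.0 CPM in knockdown replicates 1, 2 and 3. All knockdown libraries lay within the control range, and the log2 fold change was 0.08 ± 0.09 (SE). Ndufv1, whose protein binds NADH and the flavin FMN, was at 91.6, 105.7 and 120.8 CPM in the control and at 117.6, 119.0 and 94.7 CPM in the knockdown. Ndufv2, its iron-sulphur partner, was at 82.7, 96.6 and 116.9 CPM in the control and at 92.3, 105.4 and 87.4 CPM in the knockdown. In both genes every knockdown library lay within the control range. The accessory subunit gene Ndufa2 showed 1 library apart from the others. It was at 27.7, 28.1 and 33.3 CPM in the control and at 43.3, 29.6 and 25.0 CPM in the knockdown, so that knockdown replicate 1 was the highest of all and knockdown replicate 3 the lowest. Its log2 fold change was 0.14 ± 0.18 (SE). The genes Ndufa1, Ndufa4, Ndufa9, Ndufa10, Ndufb5, Ndufb8 and Ndufb9 had log2 fold changes between -0.11 (Ndufb9) and 0.02 (Ndufb8), with standard errors between 0.10 and 0.15. They encode accessory subunits, except that Ndufa4 is counted here with complex I although its protein is now assigned to complex IV. Of the 13 complex I genes tested, 6 lay above 0 and 7 below, with a median of -0.0408 and a range from -0.20 to 0.14.

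Complex II, succinate dehydrogenase, also works in the citric acid cycle. Sdha, which encodes its flavoprotein, was at 180.5, 149.3 and 156.6 CPM in the control and at 167.2, 158.0 and 155.4 CPM in the knockdown. All knockdown libraries lay within the control range, and the log2 fold change was -0.02 ± 0.10 (SE). Sdhb, which encodes the iron-sulphur subunit, spread from 97.7 to 149.1 CPM in the control and from 107.4 to 143.6 CPM in the knockdown. The membrane anchor genes Sdhc and Sdhd had log2 fold changes of -0.000331 and -0.06, with standard errors of 0.11 and 0.14. In complex III, Uqcrfs1, which encodes the Rieske iron-sulphur protein, had the highest fold change of all 28 genes. It was at 81.9, 89.2 and 102.9 CPM in the control and at 115.3, 99.1 and 91.7 CPM in the knockdown. Only knockdown replicate 1 lay above every control library, and the log2 fold change was 0.16 ± 0.12 (SE), with an unadjusted p of 0.201 and an adjusted p of 1.00 in edgeR's test. Uqcrc2, a core protein gene, and Uqcrb, a ubiquinone-binding subunit gene, had -0.03 ± 0.14 and -0.01 ± 0.15 (SE).

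Complex IV, cytochrome c oxidase, is the last carrier of the chain. Cox4i1, which encodes a regulatory subunit, spread from 194.5 to 205.9 CPM in the control and was at 213.8, 215.2 and 156.1 CPM in the knockdown. Knockdown replicates 1 and 2 were above and knockdown replicate 3 below every control library, and the log2 fold change was -0.04 ± 0.12 (SE). Cox5b, which encodes a subunit that binds zinc, was at 56.7, 42.3 and 44.9 CPM in the control and at 41.2, 43.5 and 35.9 CPM in the knockdown. Control replicate 1 stood above the other libraries. The log2 fold change was -0.26 ± 0.13 (SE), with an unadjusted p of 0.0815 and an adjusted p of 1.00. Without control replicate 1 it was -0.11. Cox5a and Cox6c, both structural subunit genes, had 0.04 ± 0.09 and -0.04 ± 0.13 (SE).

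In complex V, Atp5b, which encodes the catalytic beta subunit, was the most abundant of the genes in the count tables and made up between 30.0% and 33.4% of their counts. It was at 858.8, 1014 and 1091 CPM in the control and at 928.3, 1086 and 882.8 CPM in the knockdown, and the log2 fold change was -0.03 ± 0.12 (SE). Atp5c1, which encodes the gamma subunit that turns inside the catalytic head, lies on chromosome 2 from 10056030 to 10080510 (GRCm38). It was at 101.4, 108.0 and 122.3 CPM in the control and at 80.7, 106.1 and 88.1 CPM in the knockdown. Knockdown replicate 2 lay inside the control range, and the other knockdown libraries lay below it. The log2 fold change was -0.27 ± 0.12 (SE), with an interval from -0.54 to -0.01. Its p was the smallest among these genes (0.0458 unadjusted, 1.00 adjusted, edgeR). The Atp5c1 interval overlaps that of Atp5b, and the difference between the genes was not tested. Atp5c1 overlaps a small nucleolar RNA gene, Gm23608, and has 2 pseudogenes of at least 95% identity over at least 150 bases, so part of its reads may be shared.

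The level of these genes as a list varied between libraries within each group. Measured from its mean over 6 libraries in log2 units, the median gene of the 28 was at -0.02 in control replicate 1, -0.05 in control replicate 2 and 0.12 in control replicate 3. In the knockdown it was at 0.07 in replicate 1, 0.08 in replicate 2 and -0.15 in replicate 3. Control replicate 3 was above the mean for 25 of 28 genes and was the highest library for 13. Among the 13 complex I genes it was above the mean for 12. Knockdown replicate 3 was above the mean for 4 of 28 and was the lowest library for 10. The same median over all genes of at least 1 CPM lay between -0.01 and 0.01 in each library. TMM scaling holds that median near 0, so it gives no measure of the usual spread of a list of 28 genes. Without control replicate 3 the median log2 fold change was 0.0514, with 19 of 28 genes above 0, and without knockdown replicate 3 it was 0.04, with 20 of 28 above 0. Rn28s1 took 1.01% of the counts in knockdown replicate 3 and between 2.9% and 4.49% in the other libraries, and its part in this spread was not tested. The markers of dopamine neurons summed to 545.2 CPM in control replicate 3 and to 534.5 CPM in knockdown replicate 3, the highest values in each group.

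**Figure D2:**
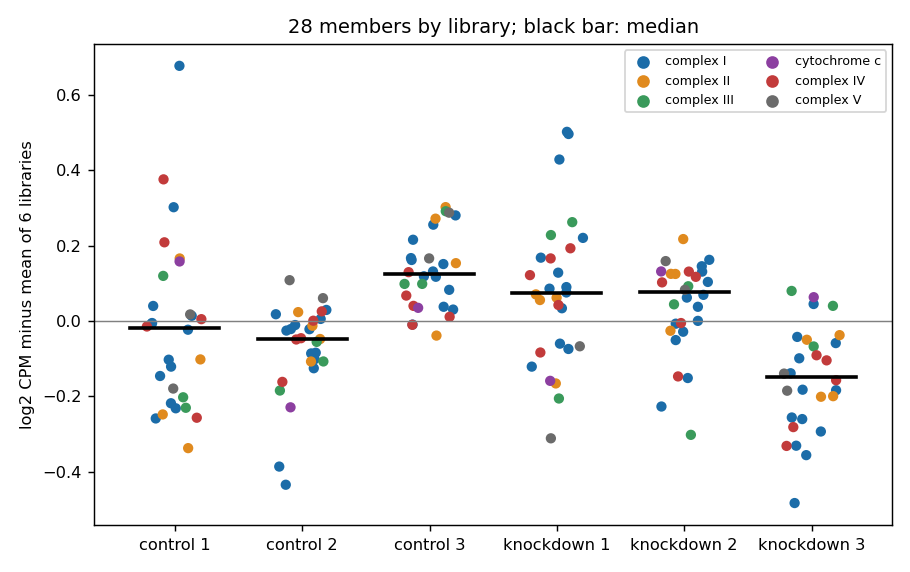
Log2 CPM of each of the 28 tested genes minus its mean over the 6 libraries, by library, coloured by complex, with the median as a black bar. The medians run from -0.15 in knockdown replicate 3 to 0.12 in control replicate 3, and both groups hold libraries on either side of 0.

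In some of these genes both libraries of replicate 1 stood apart from the others, whichever the hairpin. Ndufa5, an accessory subunit gene of complex I on chromosome 6 from 24518662 to 24527690, was at 32.1, 15.3 and 19.9 CPM in the control and at 27.0, 17.1 and 14.3 CPM in the knockdown. Replicate 1 was the highest in each group, and both replicate 1 libraries lay above the other 4 libraries. The mean log2 level of replicate 1 exceeded that of replicates 2 and 3 by 0.83, by 0.87 in the control and 0.78 in the knockdown. That difference was at percentile 99.5 of 14501 genes of at least 1 CPM. Ndufb3, another accessory subunit gene of complex I, was at 21.4, 12.8 and 17.8 CPM in the control and at 24.6, 15.6 and 14.5 CPM in the knockdown. Its difference was 0.60 log2 units, at percentile 98.5. Cox6c, Uqcrb and Sdha also had both replicate 1 libraries above the other 4, whereas Sdhd, Uqcrc2 and Ndufa10 had both below. These are 5 and 3 of 28 genes, or 17.9% and 10.7%, beside 10.5% and 10.8% of all genes of at least 1 CPM. The share with both below is thus near that of all genes. The differences of Sdhd and Uqcrc2 were at percentiles 6.9 and 7.12, less extreme than those of Ndufa5 and Ndufb3. Across the 28 genes the difference had a Pearson correlation of -0.43 with the log2 length of the principal transcript, beside -0.06 across all such genes. This is a description, as the genes share the same 6 libraries. The log2 fold change was -0.20 ± 0.27 (SE) for Ndufa5, which has the widest interval of the 28 genes (-0.81 to 0.40), and 0.07 ± 0.22 (SE) for Ndufb3.

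**Figure D3:**
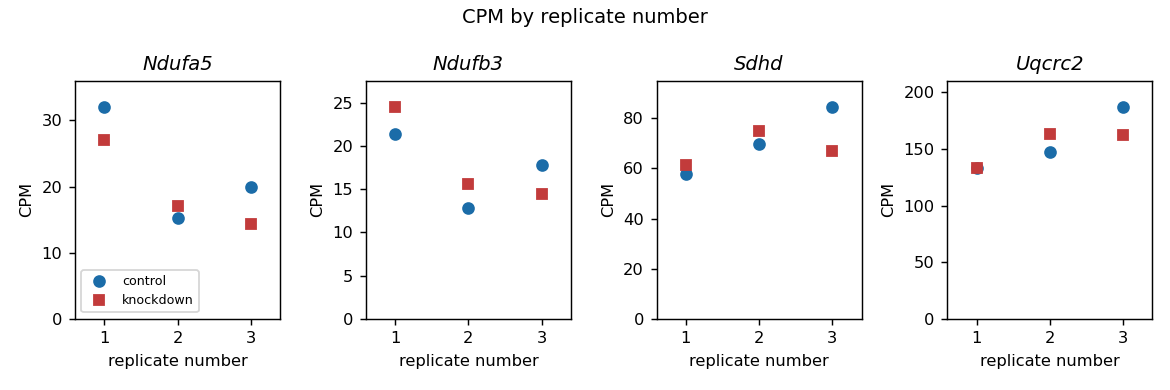
CPM of Ndufa5, Ndufb3, Sdhd and Uqcrc2 by replicate number in the control (circles) and the knockdown (squares). Both libraries of replicate 1 are above the other 4 for Ndufa5 and Ndufb3 and below them for Sdhd and Uqcrc2.

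The 250 bases before the start of transcription were searched for 3 motifs in the RefSeq promoters (GRCm38.p6), of which 22 of the 31 genes had one. The core recognised by nuclear respiratory factor 1, a factor known to bind promoters of respiratory chain genes, is GCGCA and GCGC with any 1 base between them. It was found on either strand in 4 of 22 genes (18.2%), beside 4.23% of 27025 genes in the table. The matches, in genes of complexes I, II and V, are printed 5′ to 3′ on the strand of the gene. At most 10 bases are shown on each side, with the match in capitals. The capitals are alike because the search fixed all but 1 of their bases.
Ndufa5 (chr6:24527697-24527726, minus strand): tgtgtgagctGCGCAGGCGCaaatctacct
Sdha (chr13:74350319-74350348, minus strand): cgtttacaggGCGCAGGCGCaccaccactc
Sdha (chr13:74350276-74350305, minus strand): ggggcgtgttGCGCAGGCGCagaatcttcc
Sdha (chr13:74350241-74350260, minus strand): gcgactcggtGCGCAAGCGC
Sdhd (chr9:50603909-50603938, minus strand): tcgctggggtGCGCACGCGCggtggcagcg
Atp5c1 (chr2:10080433-10080459, minus strand): ctgagctcccGCGCACGCGCactgagt

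Sdha held 3 matches and Ndufa5, Sdhd and Atp5c1 held 1 each. In GENCODE M21 each of these stretches overlaps an untranslated exon, of the gene itself for Ndufa5, Atp5c1 and 2 of the Sdha matches, of the neighbour Ccdc127 for the other Sdha match and of the neighbour Timm8b for Sdhd. CCGGAAG, the core of the ETS family to which the factor GABP belongs, was found in 2 genes (9.09%), Sdhd and Ndufs3, beside 7.83% of all genes. AAGATGGC, the core of the factor YY1, was found in 0 of 22, beside 1.83%. The median share of G and C in the windows was 59.4% for the 22 genes and 52.4% for all genes. A match to these letters is a description and not a measured site.

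Levels between genes were compared by the deposited FPKM, fragments scaled to transcript length and library size. The complex V genes Atp5a1 and Atp5b were highest, with means over 6 libraries of 313.8 and 311.9 FPKM and ranges that overlapped. Cox4i1 followed at 198.3 FPKM, and its highest library, at 223.2, lay under the lowest library of Atp5a1, at 227.2, and of Atp5b, at 275.1. The lowest were Ndufs1 at 19.5 FPKM, Cycs at 18.9 and Ndufb3 at 18.9, whose ranges overlapped. By complex, the median of the members' mean levels was 35.1 FPKM for complex I, 40.7 for complex II, 46.0 for complex III and 90.4 for complex IV. The 5 complex IV genes, from Cox5b at 72.3 FPKM upward, all had higher means than the 4 complex II genes, of which Sdhb was highest at 66.9 FPKM. That order holds for FPKM only and is uncertain. Cox5b and Cox7c of complex IV and Sdhc of complex II had few counts for their FPKM, as described below. The complex IV median of 90.4 FPKM is the level of Cox7c. Within complex I the means spanned 18.9 FPKM (Ndufb3) to 123.5 FPKM (Ndufa4, which encodes a small protein now assigned to complex IV).

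**Figure D4:**
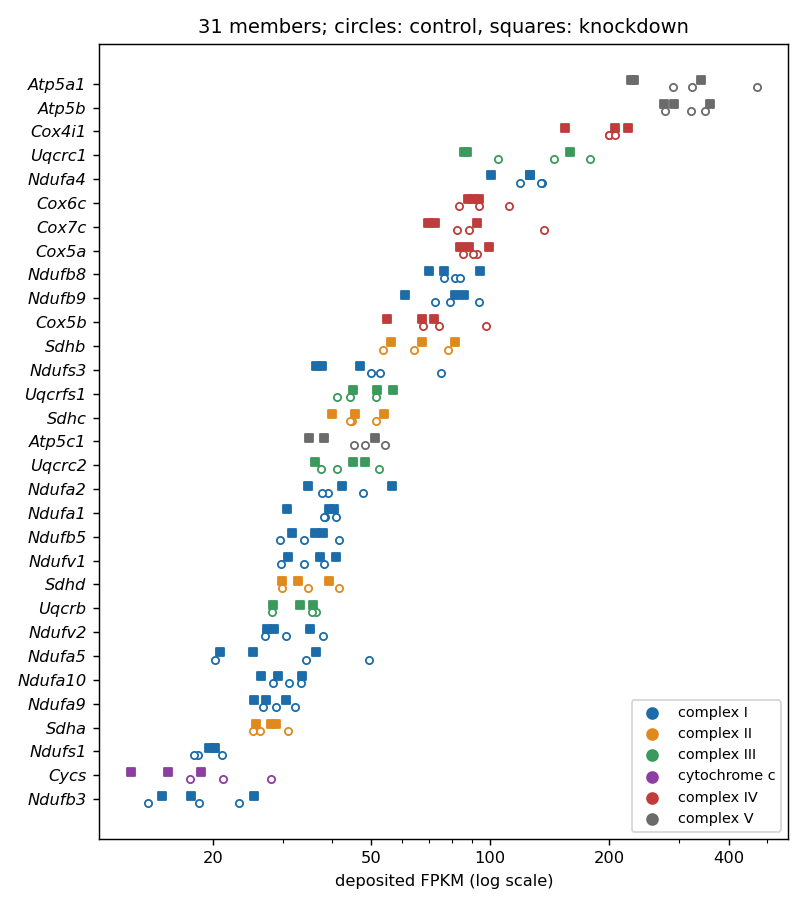
Deposited FPKM (log axis) of all 31 genes in each library, ordered by mean, with control libraries as open circles and knockdown libraries as filled squares, coloured by complex. Atp5a1 and Atp5b are highest and Cycs and Ndufb3 lowest, and the libraries of the groups are separated only for Ndufs3, beside 5.82% of all genes tested in FPKM.

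Ndufs3, Uqcrc1 and Atp5a1 could not be followed in the counts. Ndufs3 and Uqcrc1, which encode core subunits of complexes I and III, had 0 counts in all 6 libraries, and Atp5a1, which encodes the alpha subunit of the ATP synthase, had 2 counts in control replicate 3 and 0 in the others. Each of these 3 genes has a second entry on an alternate sequence of the GRCm38 assembly, and the second entry was at 0 counts too. In the FPKM tables both entries held signal, and their sum is used here unless 1 entry is named. Uqcrc1 was at 104.5, 144.9 and 178.3 FPKM in the control and at 85.9, 159.4 and 87.5 FPKM in the knockdown. Atp5a1 was at 290.0, 322.5 and 471.3 FPKM in the control and at 231.1, 340.5 and 227.2 FPKM in the knockdown. Ndufs3 was at 52.8, 50.2 and 75.2 FPKM in the control and at 37.6, 46.9 and 36.3 FPKM in the knockdown, and it was the only 1 of the 31 genes whose groups did not overlap in FPKM, beside 5.82% of 14007 genes with a mean of at least 0.5 FPKM (3.56% with the knockdown lower and 2.26% with it higher). By limma on log2(FPKM + 0.1), its log2 fold change was -0.54, with an unadjusted p of 0.0264 and an adjusted p of 1.00 over 14007 genes. Uqcrc1 had -0.39 and Atp5a1 had -0.43 on the same scale. The 2 entries of a gene were also read apart. In Ndufs3 the groups did not overlap in either entry. Its chromosome entry ranged from 21.8 to 27.9 FPKM in the control and from 16.5 to 19.3 FPKM in the knockdown. Its alternate entry ranged from 28.5 to 47.2 FPKM in the control and from 19.8 to 27.6 FPKM in the knockdown. The chromosome entry of Uqcrc1 had a control mean of 30.4 ± 5.13 FPKM and a knockdown mean of 33.2 ± 6.58 FPKM, and its alternate entry had 112.1 ± 32.8 FPKM and 77.7 ± 35.5 FPKM (SD, n = 3 each). The groups overlapped in both entries, with knockdown replicate 2 at 118.7 FPKM in the alternate entry. For Atp5a1 the chromosome entry had a control mean of 266.9 ± 83.3 FPKM and a knockdown mean of 175.2 ± 53.5 FPKM, and the alternate entry had 94.4 ± 13.6 FPKM and 91.0 ± 11.5 FPKM (SD, n = 3 each). The groups overlapped in both entries here too.

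These FPKM differences were shared by other genes with a second entry and almost no counts. Of 452 genes with a second entry and a summed mean of at least 5 FPKM, 201 (44.5%) had at most 3 counts over the 6 libraries, beside 1.94% of 7588 genes with 1 entry. The 201 genes, which include the 3 described here, had a median log2 fold change in FPKM of -0.45, and 194 of them (96.5%) lay below 0. Over 7441 genes with 1 entry and more than 3 counts the median was 0.00, with 47.8% below 0. These sets differ in both the second entry and the lack of counts, so the 2 traits cannot be told apart. By library, the median deviation of the 201 genes was 0.06 for control replicate 1, 0.14 for control replicate 2 and 0.45 for control replicate 3 (log2 units), and -0.39, 0.12 and -0.42 for the knockdown libraries in that order. For Ndufs3, Uqcrc1 and Atp5a1 together it was 0.63 in control replicate 3 and -0.39 and -0.42 in knockdown replicates 1 and 3. The same libraries were thus high and low in the 3 genes as in the whole set, and the part of the second entries in the difference was not tested.

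Cycs and Cox7c gave different values in counts and in FPKM. Cycs, the cytochrome c gene on chromosome 6 from 50562563 to 50566569, spread from 8.31 to 10.9 CPM in the control and was at 8.73, 10.7 and 10.2 CPM in the knockdown. Its log2 fold change in counts was 0.02 ± 0.16 (SE), with knockdown libraries inside the control range. In FPKM it had a mean of 22.2 ± 5.33 in the control and 15.5 ± 3.15 in the knockdown (SD, n = 3), a log2 fold change of -0.51 (limma, unadjusted p = 0.0517, adjusted p = 1.00). Cox7c, a small subunit gene of complex IV, had 0.09 ± 0.16 (SE) in counts and -0.36 in FPKM. Both genes had few counts for their FPKM. The counts per FPKM of Cycs were 8.97% of the median of genes with transcripts of like length, and those of Cox7c were 19.6%. Of the other genes with counts, Sdhc was at 31.9%, Cox5b at 47.3% and Ndufa5 at 51.5%, and the remaining 23 lay between 79.7% and 150.0%. Cycs and Cox7c each had 3 pseudogenes of at least 95% identity over at least 150 bases, as did Uqcrb, which was at 95.7%. Sdhc and Ndufa5 had 0 such copies, Cox5b had 1 near-identical gene, and Cox6c, with 2 pseudogenes, was at 108.1%. Counting can drop or split reads shared with such copies, and the ratio rests on the length of 1 principal transcript per gene. The part of either in the low ratios was not tested, and the levels of these genes are uncertain.

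**Figure D5:**
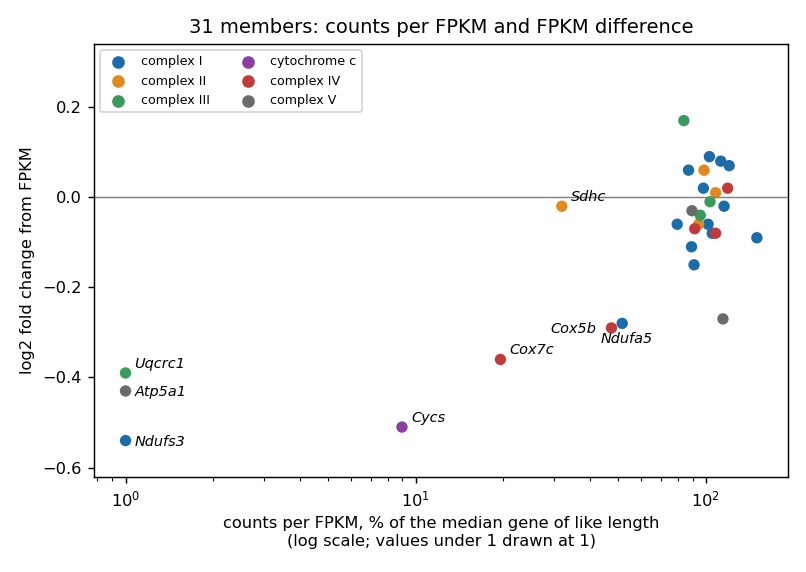
Log2 fold change of knockdown against control from FPKM (vertical axis) against the counts per FPKM of each of the 31 genes as a percentage of the median gene of like transcript length (log axis, values under 1 drawn at 1). Ndufs3, Uqcrc1 and Atp5a1 on the left and Cycs and Cox7c lie between -0.54 and -0.36, the 5 lowest values of the 31 genes.

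Among the other genes of the pathway 0 passed the threshold in any list. Of 45 other nuclear subunit genes, 43 were tested, and 0 passed, with 14 above 0, 29 below and a median log2 fold change of -0.0412. In that list Uqcr11, a small subunit gene of complex III, was at 30.2, 25.8 and 28.2 CPM in the control and at 23.4, 23.2 and 18.3 CPM in the knockdown. Its log2 fold change was -0.38 ± 0.13 (SE), with an unadjusted p of 0.0139 and an adjusted p of 1.00 in edgeR's test. Ndufs5, an accessory subunit gene of complex I, was at 19.1, 18.2 and 21.3 CPM in the control and at 15.5, 17.3 and 15.8 CPM in the knockdown, with -0.27 ± 0.12 (SE). The groups did not overlap in Uqcr11 and Ndufs5, 2 of 43 genes lower in the knockdown, beside 2.92% of all genes tested. Ndufa11 had -0.15 ± 0.12 (SE).

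Assembly factors, which build the complexes but are not part of them, had a median log2 fold change of 0.00706 over 43 of 46 genes, with 24 above 0 and 0 past the threshold. Cox18, which helps insert a complex IV subunit into the membrane, was at 11.3, 10.3 and 10.9 CPM in the control and at 13.0, 12.6 and 12.3 CPM in the knockdown. Every knockdown library was above every control library, and the log2 fold change was 0.22 ± 0.12 (SE), with an unadjusted p of 0.103 and an adjusted p of 1.00. In 5 of the 43 assembly factor genes (Cox18, Cox16, Ndufaf5, Taco1 and Tmem70) the groups did not overlap with the knockdown higher, beside 2.28% of all genes tested, and in 1 (Uqcc1) with the knockdown lower, beside 2.92%. None of the 43 had an unadjusted p under 0.05. Uqcc2, a complex III factor, had -0.28 ± 0.16 and Ndufaf7, a complex I factor, had 0.20 ± 0.12 (SE). The 12 regulators of mitochondrial gene expression had a median of -0.0102, with 6 above 0 and 0 past the threshold. Among them the nuclear receptor gene Esrra had 0.20 ± 0.13, Polrmt, the mitochondrial RNA polymerase gene, had 0.13 ± 0.12, and Tfb1m had -0.19 ± 0.17 (SE). The 13 citric acid cycle genes had a median of -0.0126, with 5 above 0 and 0 past the threshold, and Fh1, the fumarase gene, had 0.10 ± 0.12 and Sucla2 had 0.09 ± 0.11 (SE).

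Subunit isoforms of other tissues were scarce. Cox6a2, which encodes the striated muscle form of a complex IV subunit, had 21, 41 and 12 counts in the control and 11, 5 and 3 counts in the knockdown. Every knockdown library lay below every control library, and the log2 fold change was -2.06 ± 0.56 (SE), with an unadjusted p of 0.00361 and an adjusted p of 1.00 in edgeR's test. These are few counts, and the gene did not pass the threshold. It met the filter on low counts through the control, the group where it was higher, so its fold change and p are a description only. Over the 6 libraries together, the testis cytochrome c gene Cyct had 11 counts, Cox4i2 had 7, Cox7b2 and Cox8b had 1 each and Cox8c had 0. Ndufa4l2 had between 8 and 19 counts per library, with a log2 fold change of -0.93 ± 0.47 (SE), and it too met the filter through the control. Cox7a1, also a striated muscle isoform gene, had between 15 and 28 counts per library. Of the 10 isoform genes 5 were tested and 0 passed, and the groups did not overlap in 1, Cox6a2, lower in the knockdown, beside 2.92% of all genes tested. Cox7a2l, which encodes a factor that joins complexes III and IV, was the abundant one, with 74.5, 80.7 and 90.1 CPM in the control and 83.0, 89.7 and 76.7 CPM in the knockdown. Cox6b2 was at 2.44, 2.53 and 3.13 CPM in the control and at 4.32, 2.87 and 2.37 CPM in the knockdown, with knockdown replicate 1 apart from the others.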

How the data were processed

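RNA from 6 libraries, 3 control and 3 knockdown, was sequenced after removal of ribosomal RNA, in read pairs of 150 bases each. The deposited counts are whole numbers per gene, with no normalization. The deposited FPKM values were made with Cufflinks 2.2.1 on GRCm38, per the submitters' processing notes and the file headers. The sources used here do not name the aligner, the counter or a strand setting. Reads of overlapping genes therefore cannot be told apart.

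Counts were filtered with filterByExpr, scaled by TMM and tested with edgeR 4.0.16 (R 4.3.3; quasi-likelihood test, group alone, Benjamini-Hochberg adjustment over 17439 genes, threshold 0.05). In that test 0 of all genes passed, and 191 had an unadjusted p under 0.05. FPKM entries sharing a gene name were summed and tested with limma 3.58.1 on log2(FPKM + 0.1) for means of at least 0.5 FPKM. Fold changes on that scale understate those of low genes. Deviations used log2(CPM + 0.1). Counts per FPKM were compared with genes of at least 5 FPKM whose principal transcript (GENCODE M21) was 80% to 125% as long. Copies were found with blastn 2.17.0.

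On simulated counts for this comparison (17163 genes), edgeR called 79.5% of the 200 genes given a 2-fold change and 0.0825% of the rest. No 2 libraries of a group were duplicates, with chi-square values of 13.8 to 99.6 per degree of freedom. The members and lists were chosen with earlier results of these data known. Beside all 31 members, the text names up to 3 genes of each other list, those with the smallest p at a mean of at least 1 CPM. For the citric acid cycle list, 1 gene that the rule names is not reported here. Cox16, Ndufaf5, Taco1, Tmem70, Uqcc1, Cox6a2, Ndufa4l2, Cox7a1, Cyct, Cox4i2, Cox7b2, Cox8b and Cox8c were named outside that rule, after their values were seen. Of the markers of cells outside the neural lineages, 3 fibroblast and pericyte markers summed to between 31.5 and 39.3 CPM, 5 microglia markers to at most 5.79 CPM, with Aif1 at 0, and 3 endothelial markers to at most 3.71 CPM, with Cldn5 at 0. Aif1 and Cldn5 also have further entries on alternate sequences. Alternatives were other scalings and filters, DESeq2 1.42.0, limma voom, a replicate block, leaving out each library, FPKM with a pseudocount of 0.1 or 1, and, added after seeing the data, leaving out replicate 1 of both groups.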

Additional observations from a re-analysis of the deposited data

How the results depend on the processing

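Under every alternative run, 0 of the respiratory chain genes passed the threshold. Over all genes the count was 0 except without the filter on low counts, where edgeR called 11 genes, and in DESeq2, which called 1 gene, Gm24019. None of those was among the 31. The median log2 fold change of the genes tested (28, or 29 without the filter and in DESeq2) stayed between -0.0258 and -0.0169 with other scalings, filters and tools on the counts, and was -0.0623 over 31 genes in FPKM with a pseudocount of 0.1. Leaving out 1 library moved it between -0.0649 and 0.0514, and between 1 and 9 of the single genes changed sign in the alternatives where any did. Without replicate 1 of both groups it was -0.0799, with 5 of 28 genes above 0. With the replicate block the median was -0.0211, 0 genes passed, and Atp5c1 had the smallest p, 0.0272 (unadjusted). Deviations of same-numbered libraries correlated at 0.32, 0.35 and 0.05, and those of unlike numbers between -0.36 and 0.1. Each deviation was taken from the gene's mean within its group. High values for like numbers therefore bring low ones for unlike numbers by construction, and the contrast is partly built in. Control replicate 3 correlated best with knockdown replicate 2, at 0.1. The numbers are not stated to mark a shared culture, so the fit without a block was the main one. Whether same-numbered libraries share a culture cannot be told. Atp5c1 had an unadjusted p under 0.05 in all fits of 6 libraries to counts, but not without control replicate 2, control replicate 3, knockdown replicate 1 or knockdown replicate 3. Its unadjusted p was 0.0905 without replicate 1 of both groups (edgeR) and 0.157 in FPKM with a pseudocount of 0.1 (limma). The spread between libraries limits Ndufa5 and Ndufb3 most, with standard errors of 0.27 and 0.22, and Ndufs3 and Uqcrc1, at 0 counts, could not be tested in the counts.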

Other observations

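Transcripts of the mitochondrial genome supply the remaining subunits of complexes I, III, IV and V, and only the entries ND1 and ND6 of that genome were read here, in FPKM. ND6, a complex I subunit on the other strand from most mitochondrial genes, was at 115.8, 34.3 and 38.8 FPKM in control replicates 1, 2 and 3 and at 108.9, 37.0 and 37.6 FPKM in knockdown replicates 1, 2 and 3. Both replicate 1 libraries were thus the highest, as for Ndufa5 and Ndufb3 in the counts, and the groups overlapped. ND1, an entry that spans other mitochondrial genes too, was at 1382, 674.1 and 890.8 FPKM in the control and at 540.4, 694.6 and 604.1 FPKM in the knockdown, with control replicate 1 the highest.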
